A study of Mus musculus with 12 samples.

Results

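The genes described here handle iron in the cell: hephaestin (Heph), ceruloplasmin (Cp), ferroportin (Slc40a1), the metal transporters Slc11a1 and Slc11a2, the transferrin receptor (Tfrc), the ferritin heavy chain (Fth1) and the iron regulatory proteins Aco1 and Ireb2. Cultured mouse microglia, which are brain macrophages, were profiled on 12 Affymetrix arrays (Mouse Gene 1.0 ST). A gene was read from probe sets that carry its symbol and no other, and the brightest by mean signal over the 12 arrays would stand for it. Of the 9 genes, 8 had such a probe set, each had 1, and all 8 were among the 15273 genes bright enough to test. Slc11a1 had none in the annotation used and was not analysed here. The 9 genes were selected on their function with results of these data in view, ischemia changes and genotype differences included, and each probe set was to be chosen by its mean signal, so the tests below describe these genes and do not stand as independent support.

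Iron enters most cells bound to transferrin through Tfrc, or as the free divalent metal through Slc11a2, and macrophages also gain it from the haem of cells they engulf. Ferritin stores what is not used. Slc40a1 is the only known iron exporter of mammalian cells, and it works with a ferroxidase, Cp or Heph, that oxidises the iron as it leaves. Aco1 and Ireb2 sense iron and bind the messenger RNAs of Tfrc, Fth1 and Slc40a1, which tunes uptake, storage and export after transcription, so an array sees only part of this control. Microglia take up iron released in injured brain, and inflammatory signals are known to shift macrophages towards holding it.

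The 4 groups held 3 arrays each. Wild-type microglia under control conditions are called CN and wild-type microglia after ischemia CH. The knockout-labelled counterparts, from mice labelled TLR4 knockout, are called TN and TH. Ischemia meant 24 h of hypoxic or hypoglycemic conditions. All cells, controls included, then spent 24 h in normal oxygen and glucose (reperfusion), so every value shows the state after recovery. The source labels of the 3 CH arrays read as control conditions while their titles and the series key place them under hypoxia, and the titles were followed. The labels give neither strain nor age, do not describe the altered Tlr4 allele, and leave unsaid if replicates were separate cultures or animals. P-values thus cover just the spread among these samples, possibly technical. The extraction text speaks of myocytes, where all other labels name microglia. In such bulk RNA, fewer cells of a type and less RNA per cell cannot be told apart.

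Values are log2 signals made by the authors with RMA, so a difference of 1 is a doubling. Array medians lay between 6.30 and 6.40, and arrays of a group correlated at 0.976 or more. With 3 arrays a group, precision is limited by their number. The probe set of Tlr4, the receptor for bacterial lipopolysaccharide, read 8.39 to 8.97 in the 6 knockout-labelled arrays and 8.54 to 9.02 in the 6 wild-type arrays, so it does not check the labels and the libraries are called knockout-labelled throughout. Of 12 measured microglia markers, 11 had a mean above 5.36, the level under which genes were not tested. Csf1r and Itgam were bright at 12.3 and 12.0, P2ry12 was near that level at 5.75 and Gpr34 was below it at 4.84. CN2 and CH2 stood apart, with mean microglia marker signals of 8.97 and 8.95, where the remaining wild-type arrays had 8.19 to 8.41. Numbers behind a group name, as in CN2, are the replicate numbers of the titles. Same-numbered arrays of a genotype deviated together, so a paired fit, with the genotype and number as a block, was also made for the ischemia changes. For Slc11a2, Fth1 and Aco1 the values given are from the fit without the block.

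In wild-type cells, Heph fell and Cp rose after ischemia in the paired fit of limma, both by over 0.6 on the log2 scale. In the knockout-labelled cells, Tfrc rose in that fit, a call lost when some of the pairs were left out. For the difference of the changes between genotypes the paired fit called 0 of the 8, beside 0.308% of all genes. Slc40a1 was higher in knockout-labelled than in wild-type arrays after ischemia, a difference that passed under some settings only. In control cells it was also higher, by 0.75, and passed only with CN2 left out. Slc11a2, Fth1, Ireb2 and Aco1 passed in no comparison in either fit. Without the block, limma called 0 of the 8 genes in any of the 5 comparisons; the counts at an unadjusted p under 0.05 and the shares of all genes called are given with the comparison to all genes.

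**Figure D1:**
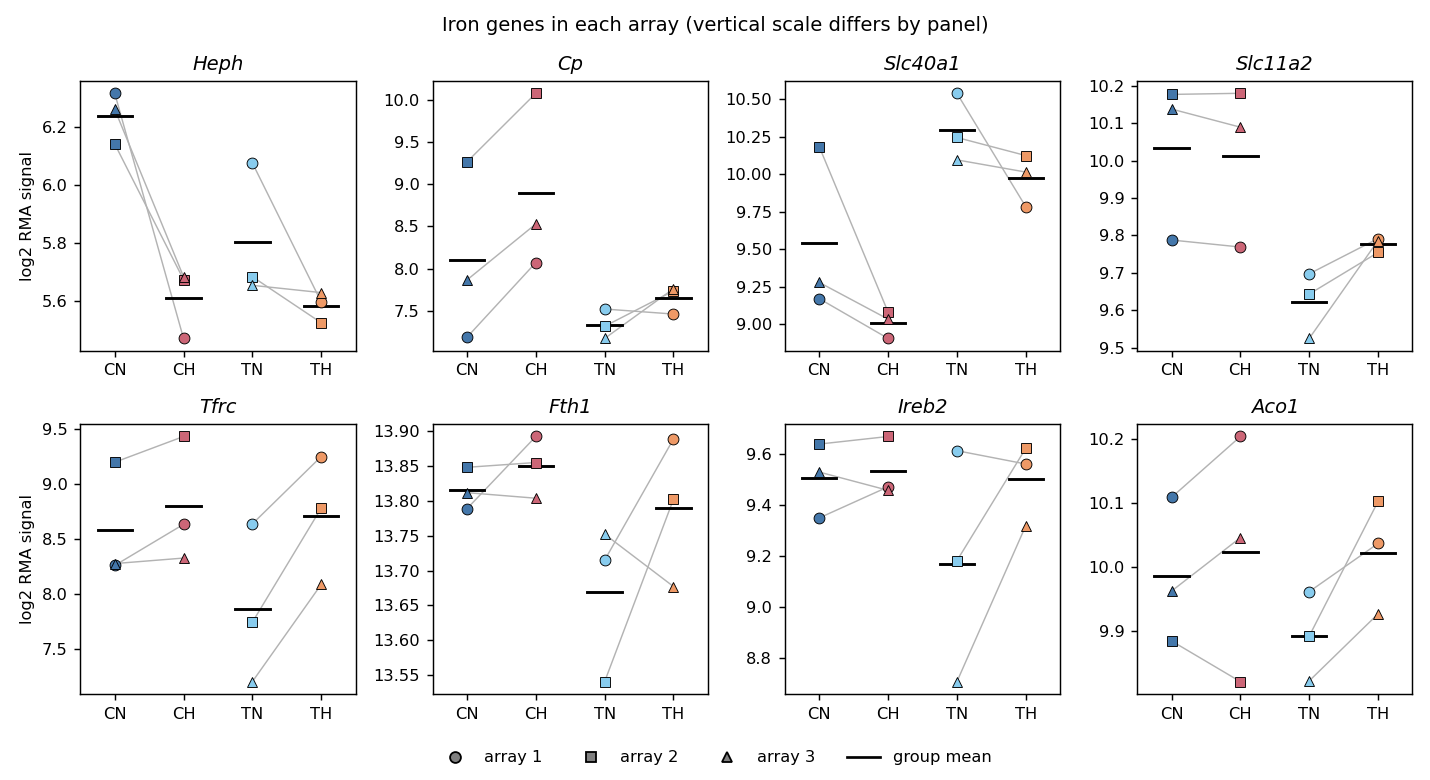
The log2 RMA signal of the 8 iron genes in each of 12 arrays, by group (CN and CH, wild-type control and ischemia; TN and TH, knockout-labelled control and ischemia). Symbols mark the replicate number, grey lines join same-numbered arrays of a genotype and black bars are group means; all 3 CN arrays lie above all CH arrays for Heph, and Cp is highest in CN2 and CH2.

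Among the ferroxidases, Heph, a membrane-bound copper enzyme, had the same direction in every pair. It read 6.32, 6.14 and 6.26 in CN1, CN2 and CN3, and 5.47, 5.67 and 5.68 in CH1, CH2 and CH3. No CH array reached the lowest CN array. The knockout-labelled arrays read 6.08, 5.68 and 5.65 in TN and 5.60, 5.52 and 5.63 in TH. TN1 stood above the other TN arrays, and TH lay narrowly below TN without overlap, as for 6.36% of all genes. The order of the means was CN, TN, CH and TH. CN did not overlap TN, while TN and CH overlapped, as did CH and TH.

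The wild-type change of Heph was -0.63 (SE 0.12, limma adjusted p = 0.242), a 1.55-fold lower signal, and the paired fit gave an adjusted p = 0.00776 (SE 0.11). The 3 wild-type pairs changed by -0.85, -0.47 and -0.58. Without pair 1 the paired change was -0.52 (limma adjusted p = 0.111). Groups that do not overlap in this direction were found for 12.3% of all genes. The knockout-labelled change was -0.22 (95% interval -0.48 to 0.04, limma adjusted p = 0.588; paired fit 0.299), with pair changes of -0.48, -0.16 and -0.025. Without TN1 it was -0.085. The difference of the changes, 0.41 (limma paired-fit 95% interval 0.07 to 0.75), did not pass (adjusted p = 0.526). Heph was also lower in TN than in CN, by -0.44 (SE 0.12, limma adjusted p = 0.537).

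The Heph probe set was dim. Its mean of 5.81 was above that of 39.1% of probe sets, though all 12 arrays exceeded 5.36. Tested genes with mean signals of 5.36 to 6.08, which include Heph, had a median wild-type change of -0.13. After quantile normalization or median centring the Heph change was -0.57 either way, and the paired call held (limma adjusted p = 0.0128 and 0.00887). Marker ranges of some other cell types also lay lower in CH than in CN. Ependymal and choroid plexus markers, 5 of 8 above 5.36 (Ttr, Clic6 and Dynlrb2 were not), did not overlap, with array means of 5.56 to 5.65 in CN and 5.46 in all 3 CH arrays. They had 5.60 to 5.78 in TN and 5.45 to 5.65 in TH. The ranges of the other lists overlapped. Neuron markers, 6 of 12 above it (Tubb3, Snap25, Stmn2, Nefl, Slc17a6 and Dcx were not), had means of 5.57 to 5.72 in CN and 5.39 to 5.58 in CH. Fibroblast and mural markers, 7 of 10 above 5.36 (Dcn, Lum and Rgs5 were not), had array means of 5.91 to 6.35 in CN and 5.74 to 6.01 in CH. Oligodendrocyte markers, 10 of 12 measured above it (Ermn and Ugt8a were not), had means of 6.32 to 6.75 in CN and 6.27 to 6.57 in CH. Astrocyte markers, 8 of 12 above it (Aqp4, Gja1, Gjb6 and Slc4a4 were not), had means of 6.14 to 6.37 in CN and 5.97 to 6.25 in CH. Endothelial markers, 4 of 8 above 5.36 (Pecam1, Cdh5, Tek and Slco1a4 were not), did not lie lower. They had means of 5.96 to 6.04 in CN and 5.99 to 6.08 in CH. Tested genes with mean signals of 6.08 to 6.90 had a median wild-type change of -0.12, so dim genes in general were lower in CH. Of all single genes 12.3% lay lower in CH without overlap. The part of these markers in the Heph change was not tested.

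Cp, a copper ferroxidase that macrophages and astrocytes make, read 7.19, 9.26 and 7.87 in CN1, CN2 and CN3. It read 8.07, 10.07 and 8.53 in CH1, CH2 and CH3. The spread between wild-type arrays exceeded the change, yet each CH array was above its same-numbered CN array. In the knockout-labelled arrays Cp read 7.52, 7.32 and 7.18 in TN and 7.46, 7.74 and 7.76 in TH, with pair 1 flat and pairs 2 and 3 higher. The means ran from CH down through CN and TH to TN, and each neighbour in that order overlapped the next.

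The wild-type change of Cp was 0.78 (SE 0.50, limma adjusted p = 0.459), a 1.72-fold higher signal. Pair changes were 0.88, 0.81 and 0.66, and the paired fit called the rise (SE 0.12, limma adjusted p = 0.00264). That call held with any 1 wild-type pair left out (limma adjusted p from 0.0103 to 0.0304). All 3 pairs were higher for 25.8% of all genes. In the knockout-labelled cells the change was 0.32 (SE 0.12 in the paired fit, limma adjusted p = 0.179), with pair changes of -0.059, 0.42 and 0.59. The difference between genotypes of -0.47 (limma paired-fit 95% interval -0.83 to -0.11) had an adjusted p = 0.485. After ischemia all 3 TH arrays lay below all CH arrays, as for 8.07% of genes, by -1.24 (95% interval -2.32 to -0.15, limma adjusted p = 0.506). Leaving out CH2 made that difference -0.65, and leaving out CN2 made the difference of -0.77 between TN and CN -0.19 (limma adjusted p = 0.802 and 0.936). The unpaired wild-type change was 0.33, 1.36, 1.19 and 0.19 without CN1, CN2, CH1 and CH2. CN2 and CH2, highest for Cp, also had the highest wild-type means for markers of border-associated macrophages, 8.37 and 8.18, where the rest had 7.61 to 7.89. Of those 11 markers 9 were above 5.36, Cd163 and Clec10a were not, and their part was not tested. Astrocyte marker means were lowest in those arrays of their groups, at 6.14 and 5.97.

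Slc40a1, the exporter, read 9.17, 10.18 and 9.28 in CN, and 8.91, 9.08 and 9.03 in CH. The knockout-labelled arrays read 10.54, 10.24 and 10.09 in TN and 9.78, 10.12 and 10.01 in TH. CN2 alone among wild-type arrays reached the knockout-labelled range. The order of the means was TN, TH, CN and CH, and only the last neighbours, CN and CH, did not overlap.

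After ischemia Slc40a1 was 0.97 higher in knockout-labelled cells (SE 0.22, a 1.95-fold difference), with a limma adjusted p = 0.0804. The groups did not overlap, as for 8.38% of genes in this direction. It passed with only these 6 arrays in the fit (limma adjusted p = 0.0149), with a 3-level replicate block (0.0288) and after quantile normalization (0.0475). That block also joins same-numbered arrays across genotypes, whose deviations from group means after ischemia correlated at -0.15, 0.07 and 0.33. With any 1 of the 6 arrays left out the limma adjusted p was 0.128 to 0.302. In control cells the difference was 0.75 (SE 0.22, limma adjusted p = 0.570). Without CN2 it was 1.07 (limma adjusted p = 0.0145). The ischemia change was -0.54 in wild-type cells (paired fit SE 0.16, limma adjusted p = 0.0794) and -0.32 in knockout-labelled cells (paired fit SE 0.16, limma adjusted p = 0.305). All 6 pairs were lower (3 of 3 lower pairs were found for 22.9% of genes in wild-type and 18.7% in knockout-labelled cells), from -1.10 in wild-type pair 2 to -0.081 in knockout-labelled pair 3. Without CN2 the wild-type change was -0.22, without wild-type pair 2 in the paired fit -0.25, and after quantile normalization the paired fit called it (-0.64, limma adjusted p = 0.0347).

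Tfrc brings in transferrin-bound iron and is abundant in dividing cells. Tfrc and Cp, which rose in the paired fits, differ in the bases before their start sites, so the stretch of 250 bases before the first listed start of each is shown from RefSeq (GRCm38.p6), both on the plus strand. The Cp stretch is chr3:19956804-19957053 and the Tfrc stretch is chr16:32608646-32608895. Capitals mark matches on either strand to the core of the hypoxia response element, ACGTG or GCGTG, of which ACGTG also forms the end of the E-box CACGTG.
Cp: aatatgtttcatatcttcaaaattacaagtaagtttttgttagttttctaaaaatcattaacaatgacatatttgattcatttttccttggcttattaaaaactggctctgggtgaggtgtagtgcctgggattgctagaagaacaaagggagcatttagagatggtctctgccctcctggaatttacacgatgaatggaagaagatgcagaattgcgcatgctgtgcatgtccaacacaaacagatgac
Tfrc: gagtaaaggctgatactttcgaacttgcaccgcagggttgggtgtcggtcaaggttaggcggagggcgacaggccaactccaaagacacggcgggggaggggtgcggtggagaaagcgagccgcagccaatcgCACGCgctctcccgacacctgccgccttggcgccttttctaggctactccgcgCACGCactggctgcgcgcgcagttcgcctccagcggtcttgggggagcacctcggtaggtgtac
The Tfrc stretch held 2 matches and the Cp stretch 0. Bases G and C made up 64.8% of the Tfrc stretch and 37.2% of the Cp stretch, and the share over all stretches given below is not matched for this. A further match to ACGTG lay 228 bases before the second listed Tfrc start, within chr16:32608882-32608910. The stretch before that start held 3 matches in all, the others to GCGTG at 134 and 42 bases before it. The ACGTG match is shown with its flanks.
Tfrc site: ctcggtaggtgtACGTGcggaaggaagtg
Of 32851 such stretches from 27025 genes, 38.6% held at least 1 match, so the motif is common. Fth1 had 1 match before its second listed start, and the stretches listed for Ireb2 and Aco1 had 0. Neither Cp nor Tfrc matched TGACNNNGC, the core of the antioxidant response element, or the interferon-stimulated response element, found in 10.2% and 2.98% of stretches. A match is a run of letters and not a measured binding site.

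Among knockout-labelled arrays Tfrc read 8.64, 7.74 and 7.20 in TN1, TN2 and TN3, and 9.25, 8.78 and 8.09 in TH1, TH2 and TH3. The groups overlapped, because arrays differed by more than the change, but each TH array exceeded its same-numbered TN array. In the wild type it read 8.26, 9.20 and 8.28 in CN and 8.63, 9.44 and 8.33 in CH. Those arrays numbered 2 were again the highest. The means ran CH, TH, CN and TN, and each neighbour overlapped the next.

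The knockout-labelled change of Tfrc was 0.85 (SE 0.41, limma adjusted p = 0.571), a 1.80-fold higher signal. Pair changes were 0.61, 1.04 and 0.89, and the paired fit called the rise (SE 0.11, limma adjusted p = 0.00535). Without pair 2 it was 0.75 and without pair 3 0.83, and the call was lost (limma adjusted p = 0.106 and 0.0795). The wild-type change was 0.22 (paired fit SE 0.11, limma adjusted p = 0.225), from pair changes of 0.38, 0.23 and 0.050. The genotypes' changes differed by 0.63 (limma paired-fit 95% interval 0.30 to 0.95), which did not pass over all genes (adjusted p = 0.165). In control cells Tfrc was -0.72 lower in TN than CN (SE 0.41, limma adjusted p = 0.705), and the difference was -0.39 without TN3, -0.41 without CN2 and -1.11 without TN1. The unpaired knockout-labelled change was 0.52 without TN3 and 0.57 without TH1.

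Slc11a2, the divalent metal transporter that moves iron out of endosomes, showed its widest gap between genotypes in control cells. It read 9.79, 10.18 and 10.14 in CN, and 9.70, 9.64 and 9.52 in TN. All TN arrays lay below all CN arrays, as did 4.52% of genes, by -0.41 (SE 0.13, 95% interval -0.69 to -0.14, limma adjusted p = 0.596). After ischemia it read 9.77, 10.18 and 10.09 in CH and 9.79, 9.75 and 9.79 in TH, and those groups overlapped. The wild-type change was -0.021 (95% interval -0.30 to 0.26, limma adjusted p = 0.954) and the knockout-labelled change 0.16 (-0.12 to 0.43, adjusted p = 0.688). TH lay above TN in all 3 pairs without overlap, as for 7.94% of genes. The order of the means was CN, CH, TH and TN.

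Fth1, the ferritin subunit with ferroxidase activity, was among the brightest features of the array, above 99.9% of probe sets. It read 13.79, 13.85 and 13.81 in CN and 13.89, 13.86 and 13.80 in CH. It read 13.72, 13.54 and 13.75 in TN and 13.89, 13.80 and 13.68 in TH. Ranges overlapped in all comparisons except TN against CN, where TN was lower by -0.15 (SE 0.09, limma adjusted p = 0.714). The ischemia changes were 0.034 in wild-type cells (95% interval -0.16 to 0.23) and 0.12 in knockout-labelled cells (-0.08 to 0.32), with limma adjusted p = 0.880 and 0.670.

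Of the sensors, Ireb2, which is degraded when iron is plentiful, read 9.35, 9.64 and 9.53 in CN and 9.47, 9.67 and 9.46 in CH. Its knockout-labelled arrays read 9.61, 9.18 and 8.71 in TN and 9.56, 9.62 and 9.32 in TH, with TN3 far below the rest. Its knockout-labelled change was 0.33 (paired fit SE 0.12, limma adjusted p = 0.165). Its wild-type change was 0.027 (95% interval -0.37 to 0.43 and limma adjusted p = 0.961 without the block, paired fit 0.910). Without pair 1 the paired knockout-labelled change was 0.53 (limma adjusted p = 0.0315), without pair 2 0.28 (0.536) and without pair 3 0.19 (0.670). Without TN3 the unpaired change was 0.10, and without TN1 0.56. Aco1 is a cytosolic aconitase that turns into an RNA-binding protein when it loses its iron-sulphur cluster. It ranged from 9.82 to 10.20 over the 12 arrays. Its changes were 0.038 in wild-type cells (95% interval -0.20 to 0.28, limma adjusted p = 0.890) and 0.13 in the knockout-labelled cells (-0.11 to 0.37, adjusted p = 0.695), where all 3 pairs were higher.

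**Figure D2:**
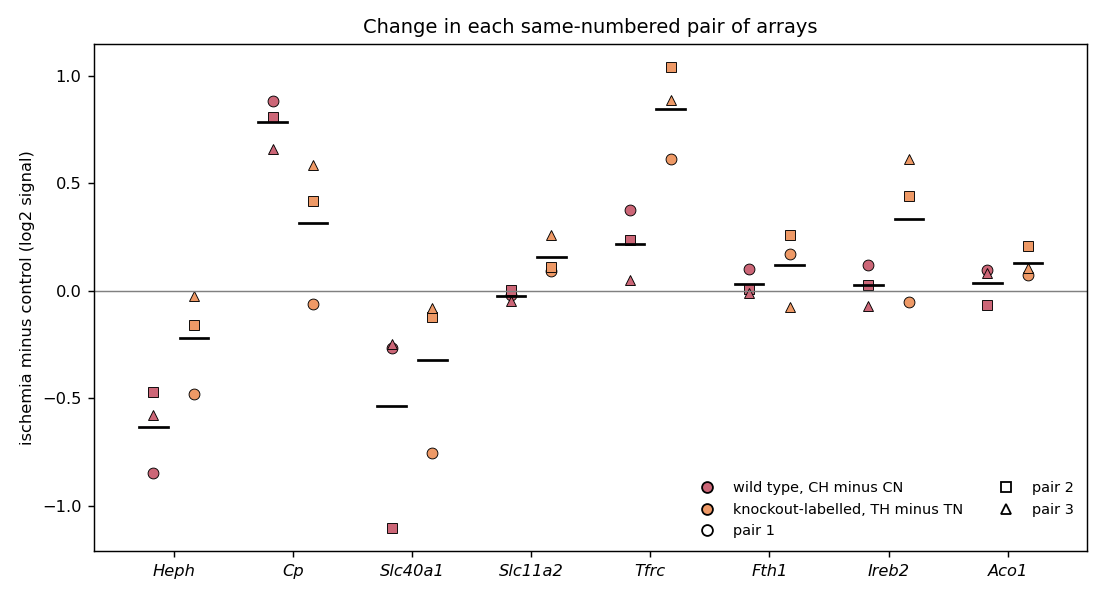
Ischemia minus control in log2 signal for each same-numbered pair of arrays, by gene and genotype; black bars are means of 3 pairs. All 6 pairs lie below 0 for Heph and Slc40a1 and above 0 for Tfrc, whose knockout-labelled pairs run from 0.61 to 1.04.

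The calls among the 8 are set beside those over all 15273 genes. Without the block, limma called 0.0131% of all genes in the wild-type ischemia comparison, 0% in the knockout-labelled one, 0.0589% between genotypes in control cells, 0.714% after ischemia and 0% for the difference of the changes. At an unadjusted p under 0.05 it found 2 (Heph and Slc40a1), 0, 3 (Heph, Slc40a1 and Slc11a2), 2 (Cp and Slc40a1) and 1 (Heph) of the 8. The shares of all genes were 14.7%, 8.73%, 7.14%, 8.35% and 2.90%. The paired fit called 2 of 8 in the wild type against 3.73% of all genes, 1 of 8 in the knockout-labelled cells against 0.648%, and 0 of 8 for the difference of the changes against 0.308%. For that difference Heph, Cp and Tfrc had an unadjusted p under 0.05 in the paired fit, as had 8.45% of genes. In the knockout-labelled cells Cp, Tfrc and Ireb2 did, as had 19.2% of genes. A 3-level block by number called Slc40a1 after ischemia (1.55% of all genes) and 0 of the 8 in the wild type (0.0196%), in the knockout-labelled cells (0.00655%) and between genotypes in control cells (0.203%). Groups did not overlap for 2 of 8 genes in the wild type (21.7% of all genes; 0 of the 8 lay higher without overlap, beside 9.38%), 2 in the knockout-labelled cells (14.3%), 3 between genotypes in control cells (9.89%; 0 of the 8 higher, beside 5.37%) and 2 after ischemia (16.5%). The median wild-type change of the 8 was 0.03, with 5 higher, beside 0.01 and 52.4% higher over all genes. After quantile normalization 3 of 8 were higher with a median of -0.06, beside 43.3% and -0.03 over all genes. The median knockout-labelled change was 0.14, with 6 higher, beside -0.00092 and 49.8% higher over all genes. In control cells 7 of the 8 were lower in knockout-labelled arrays, with a median of -0.38 beside 0.0030 and 50.8% higher over all genes. Slc40a1 was the exception. Without CN2 the differences of Cp and Tfrc were smaller and that of Slc40a1 larger, as given above. After ischemia 7 of 8 were again lower, Slc40a1 again excepted, with a median of -0.05 beside 0.01 and 52.7% higher over all genes. After quantile normalization 5 of 8 were lower and Aco1 and Ireb2 were also higher, where 57.2% of all genes were higher. Of those 7, Heph, Ireb2 and Aco1 differed by only -0.026, -0.032 and -0.0016. These comparisons share arrays and are not independent of each other, and some of the 8 genes vary together over the arrays.

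**Figure D3:**
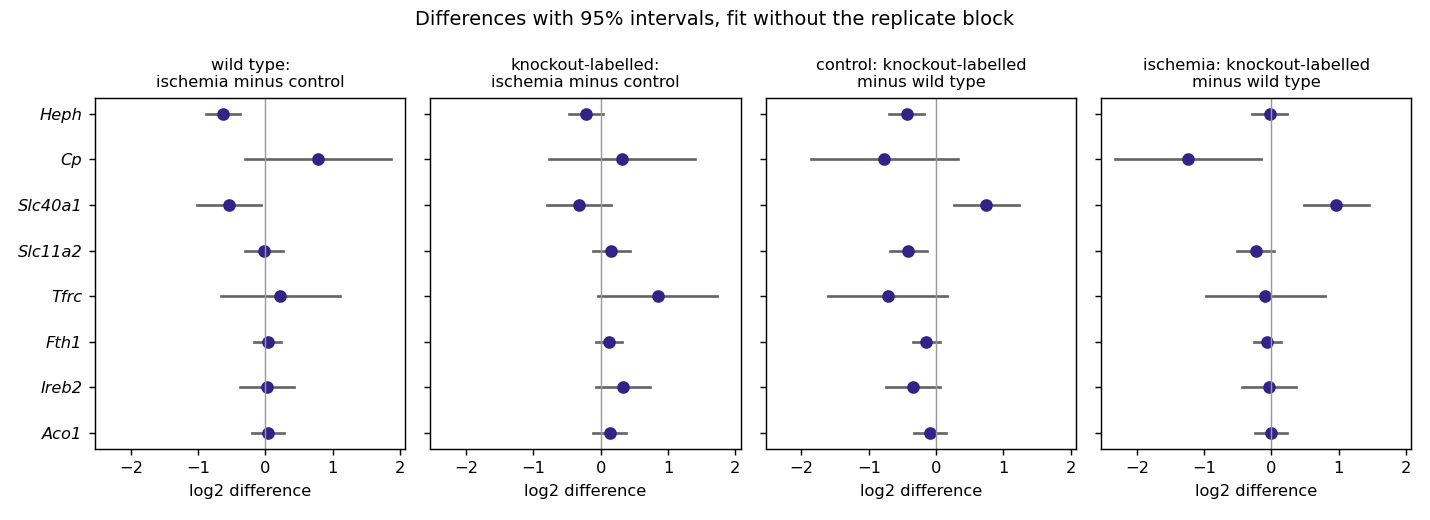
The log2 difference of each of the 8 genes in 4 comparisons of 3 arrays with 3, with 95% intervals from limma without the replicate block. Slc40a1 lies above 0 in both genotype comparisons, at 0.75 and 0.97, and the interval of Cp is the widest in each comparison.

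Other genes of iron and haem handling were taken from 7 lists of 89 genes, of which 79 were bright enough to test. Without the block, limma called 0 of them after ischemia in either genotype. Before adjustment 12 and 6 of the 79 were under 0.05, beside 14.7% and 8.73% of all genes. Of the 79, 6 rose and 0 fell in wild-type cells in the paired fit, where 457 of all 15273 rose and 113 fell. In knockout-labelled cells 1 rose and 0 fell, beside 82 and 17 over all genes. In control cells limma without the block called 0 of the 79 between genotypes, and 9 of all genes. At an unadjusted p under 0.05 it found 7 of the 79, beside 7.14% of all genes. After ischemia 2 were lower in knockout-labelled cells and 0 higher, beside 99 and 10 over all genes. The medians over the 79 were 0.07, 0.02, 0.03 and 0.00087 in those 4 comparisons, in that order.

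The haem group held the largest single changes. Hp, haptoglobin, which binds haemoglobin freed from red cells, read 9.10, 7.55 and 8.77 in CN and 9.56, 8.49 and 10.24 in CH. In knockout-labelled arrays it read 7.23, 6.81 and 6.54 in TN and 6.91, 6.54 and 6.95 in TH, below every wild-type array. After ischemia Hp was lower by -2.63 in knockout-labelled cells (SE 0.42, limma adjusted p = 0.0132), and with CH1, TH1, TH2 or TH3 left out the adjusted p was 0.0544, 0.0746, 0.0715 and 0.0675. Its wild-type rise of 0.96 passed with pairing (limma adjusted p = 0.00765; 0.0657 without pair 3). Hmox2, the constitutive haem oxygenase, rose by 0.43 in the wild type in the paired fit (limma adjusted p = 0.0333), but not after quantile normalization (0.10) or without any 1 wild-type pair (0.0618 to 0.314). Abcg2, an exporter of porphyrins, rose by 0.67 in the knockout-labelled cells in the paired fit (limma adjusted p = 0.0188), with pair changes of 0.61, 0.73 and 0.66. That call was lost without pair 2 or 3 (limma adjusted p = 0.209 and 0.126). The wild-type change of Abcg2 was 0.35 (limma paired-fit adjusted p = 0.0891). After median centring it was 0.41 and the paired fit called it (limma adjusted p = 0.0379). The difference of its changes between genotypes did not pass (limma paired-fit adjusted p = 0.619). Of 13 genes tested in that list, each genotype had 7 higher and 6 lower.

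Lcn2, lipocalin, which withholds iron from bacteria by binding their siderophores, read 7.35, 6.93 and 7.13 in CN and 6.77, 8.10 and 7.39 in CH. It read 6.42, 5.98 and 5.99 in TN and 6.28, 5.51 and 5.88 in TH, so the genotypes overlapped neither in control cells nor after ischemia. In control cells Lcn2 differed by -1.01 (SE 0.28, limma adjusted p = 0.540). It was lower by -1.53 in knockout-labelled cells after ischemia (SE 0.28, limma adjusted p = 0.0286). With CH1 left out the limma adjusted p was 0.00945, and with any other of those 6 arrays left out it was 0.0539 to 0.134. The wild-type ischemia change of Lcn2 was 0.28 and had no common direction over the pairs (-0.59, 1.17 and 0.26). Bmp2, a ligand of the pathway that induces hepcidin, rose by 0.58 in the wild type with pairing (limma adjusted p = 0.0232), but missed the threshold without pair 1 or 2 (0.197 and 0.0929). Among 16 tested genes of the sensing and hepcidin list it was the 1 called without the block or in the paired fit. After ischemia Bmp2 differed by -0.97 between genotypes (limma adjusted p = 0.337), without overlap, and the 3-level block called it (SE 0.19, limma adjusted p = 0.0253). Hp and Lcn2 were also called by that block (limma adjusted p = 0.000803 and 0.0212).

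Genes of mitochondrial iron and iron-sulphur assembly were higher in 21 of 22 tested in the wild type, with a median of 0.16, where 52.4% of all genes were higher. That share is not matched to the list for signal. Tested genes with mean signals from 6.90 up had median wild-type changes of 0.08 to 0.12, where dimmer ones had -0.13 and -0.12. After quantile normalization 14 of 22 were higher with a median of 0.05, beside 43.3% of all genes. In the paired fit the cluster assembly factors Nfu1 (0.52) and Bola3 (0.37) and the outer membrane protein Cisd1 (0.41) rose, with limma adjusted p = 0.0483, 0.0444 and 0.0376. After quantile normalization these were 0.0951, 0.138 and 0.101, and each of the 3 calls was lost without any 1 wild-type pair. Knockout-labelled cells had 11 of the 22 higher, at a median of -0.0026, beside 49.8% of all genes. After quantile normalization 6 of the 22 were higher there, beside 44.0% of all genes. The paired fit called 0 of the 22 for the difference of the changes.

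The other lists had no call in any comparison in either fit. Of 11 haem synthesis genes, 9 were higher in the wild type (median 0.18), where 52.4% of all genes were higher, a share not matched for signal. After quantile normalization 7 of 11 were higher, beside 43.3% of all genes. Alas1, the first enzyme of the pathway, changed by 0.36 in the knockout-labelled cells (limma paired-fit adjusted p = 0.110) and Cpox by 0.28 in the wild type (0.127). The 9 import and reductase genes had medians of -0.03 in both genotypes (0.03 and -0.01 after median centring), with values of -0.25 for the lysosomal channel Mcoln1 in the knockout-labelled cells (limma paired-fit adjusted p = 0.204) and -0.18 for the transporter Slc39a8 in the wild type (0.295). Among 6 ferritin partners and chaperones, the dim mitochondrial ferritin Ftmt changed by -0.40 in the knockout-labelled cells (limma paired-fit adjusted p = 0.101) and Pcbp1, which delivers iron to ferritin, by 0.07 in the wild type (0.692).

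**Figure D4:**
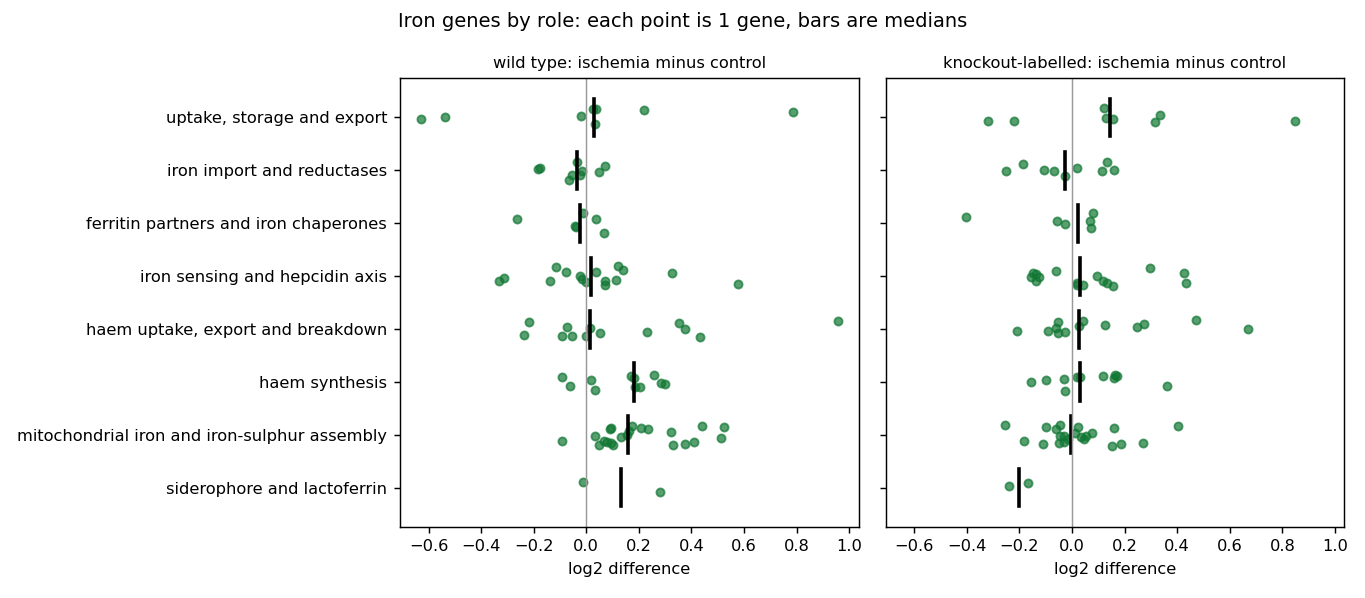
The log2 difference between ischemia and control for each gene of the described set (top row) and of the 7 further lists, in wild-type (left) and knockout-labelled cells (right); points are genes and bars are list medians. In the wild type the mitochondrial iron genes have a median of 0.16 and the haem synthesis genes 0.18, and Hp is the point farthest to the right at 0.96.

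The genes whose pattern over the 12 arrays was most like each member were taken by Pearson's r, as a description; the arrays share groups, pairs and a common normalization. Heph was closest to Faim2 (0.898), Kcnv2 (0.869) and Glul (0.869). Cp was closest to Ifi207 (0.965), Gbp9 (0.964) and Fbxw17 (0.963). Slc40a1 was closest to Asb10 (0.940), Rgs12 (0.925) and Fads3 (0.896). Slc11a2 was closest to Ppfibp2 (0.910), Ncapd3 (0.909) and Akr1b8 (0.896). Tfrc was closest to Nup155 (0.988), Septin2 (0.970) and Ccdc28b (0.965), and Ireb2 to Yme1l1 (0.985), Atxn3 (0.981) and Acbd5 (0.981). These were the highest values among the 8 genes. Fth1 was closest to Upk1b (0.885), B2m (0.876) and Ctsd (0.873), and Aco1 to Add3 (0.919), Septin11 (0.894) and Ivns1abp (0.889).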

How the data were processed

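RNA of 12 samples was measured on 1 array each. The authors deposited 1 log2 signal for each probe set; the submitters' processing notes name Affymetrix Expression Console 1.1 and RMA. RMA normalizes arrays by quantiles, so differences in total RNA cannot be seen. Of 35557 probe sets, 21789 had 1 symbol in the annotation used, updated through Entrez identifiers for 21698. Genes whose mean did not exceed the 30th percentile of probe sets (5.36 log2) were dropped, leaving 15273.

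Limma 3.58.1 (R 4.3.3) was fitted over all 12 arrays with 1 mean per group, and a gene was called where its p, adjusted by Benjamini-Hochberg across the 15273, was under 0.05. Same-numbered arrays correlated in their deviations from group means at 0.48, 0.73 and 0.48 in the wild type. In the knockout-labelled arrays they correlated at 0.36, 0.32 and 0.49. All were above 0.1, so the numbers were taken to pair the samples within a genotype, which rests on the data. Some differently numbered arrays also exceeded 0.1: CN1 with CH3 at 0.40, CN3 with CH1 at 0.12 and TN1 with TH2 at 0.22. The other differently numbered arrays of a genotype correlated negatively. Wild-type numbers 1 and 3 were thus less clearly told apart. In the paired fit both genotypes share each gene's spread. Between genotypes, same-numbered arrays correlated at -0.33, 0.037 and 0.15 in control cells and at -0.15, 0.068 and 0.33 after ischemia. Not all reached 0.1, so the data do not bear out the matching across genotypes that the 3-level block assumes. Steps were tested on simulated data.

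The members, lists, tests and alternatives were chosen with earlier results of these data known. The text names all members, the other iron genes called in either fit, otherwise 2 of a list with the smallest paired p, and the 3 genes most like each member. Some sequences were not listed and are not used here.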

Additional observations from a re-analysis of the deposited data

How the results depend on the processing

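With 3 arrays a group and dim signal for Heph, small changes cannot be resolved, and calls rest on the block. The replicate block within genotype called 2 of the 8 genes after wild-type ischemia and 1 after knockout-labelled ischemia, where the fit without it called 0, and moved the calls over all genes from 2 to 570, from 0 to 99 and, for the difference of the changes, from 0 to 47. The 3-level replicate block called 1 gene, Slc40a1, between genotypes after ischemia (236 of all genes against 109) and 0 of the 8 elsewhere, with 31 of all genes against 9 in control cells. Using only the groups compared and quantile normalization each also called 1 there. With 1 array left out, 0 of 8 were called except 0 to 1 between genotypes in control cells (Slc40a1 without CN2). Other settings without the block called 0 of the 8. The following were chosen after seeing the data. Without CN2 and CH2, Slc40a1 was the 1 gene called in each genotype comparison. With a same-numbered pair left out the paired fit called 1 to 2 genes of wild-type and 0 to 3 of knockout-labelled cells; after quantile normalization it called 3 and 1, and after median centring 2 and 1.

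Signs turned only for changes that no fit called, and the cause was not tested. After quantile normalization the wild-type changes of Aco1 and Ireb2 were -0.054 and -0.072, and their genotype differences after ischemia 0.036 and 0.018. After median centring the wild-type change of Slc11a2 was 0.039. Without CN2 and CH2 the genotype differences after ischemia were 0.036 for Ireb2, 0.23 for Tfrc and 0.0064 for Heph, and the difference of the changes was -0.064 for Slc40a1, also in the paired fit. Without wild-type pair 1 the paired wild-type changes were -0.00054 for Fth1 and -0.021 for Ireb2. With 1 array left out, wild-type changes ran from -0.052 to 0.093 for Ireb2, -0.052 to 0.14 for Aco1, -0.14 to 0.10 for Slc11a2 and -0.098 to 0.53 for Tfrc. Genotype differences after ischemia ran from -0.10 to 0.089 for Aco1, -0.093 to 0.059 for Ireb2, -0.36 to 0.23 for Tfrc and -0.095 to 0.011 for Heph. Differences of the changes ran from -0.10 to 0.40 for Slc40a1, -0.0096 to 0.18 for Aco1 and -1.05 to 0.12 for Cp.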

Other observations

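Over the 12 arrays Tfrc and Ireb2 had the highest correlation of the 28 pairs among the 8 genes, with Pearson's r of 0.892. TN3 was the lowest array for both Tfrc and Ireb2, at 7.20 and 8.71, and an r without it is not given. Cp and Slc11a2 followed at 0.816. Tfrc and Cp correlated at 0.650, and Slc40a1 had a negative r with each of the other genes except Heph (0.020). These values describe 12 arrays that share groups and same-numbered pairs, and no p-value is attached. Heph had an r between -0.11 and 0.33 with each of the other 7 genes.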
